A study of Homo sapiens with 4 samples.

Results

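The NOTCH pathway genes described here were the receptors NOTCH1, NOTCH2, NOTCH3 and NOTCH4, the ligands JAG1, JAG2, DLL1 and DLL4, and the targets HES1 and HEY1. These 10 genes, of 19970 protein-coding genes on chromosomes 1 to 22 and X, were taken by name as pathway components and not by a threshold on a measured value. For each gene, peaks of histone H3 lysine 27 acetylation (H3K27ac) were taken within 1 kb of the canonical start site, which is called the promoter here, and within a window of the gene body plus 100 kb on either side (hg38, GENCODE release 44). The 4 lists of peaks came from chromatin immunoprecipitation sequencing of MDA-MB-231 and Hs578T, human triple-negative breast cancer cell lines, with 2 replicates of each. Cells of all 4 samples had been seeded in medium with 10% serum, starved for 8 h and given the cytokine TWEAK at 10 ng/ml for 48 h. TWEAK was then withdrawn, for 72 h according to the series' design text, while the study's text gives a longer washout, and which time applies to these samples is not settled. No untreated or continuously treated sample was analysed here, so the values describe the state of the genes after the washout and carry no measure of a TWEAK effect. The study's methods describe biological replicates for ChIP-seq in cell lines, and the labels of these samples say nothing more of their origin.

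NOTCH receptors are single-pass membrane proteins that are activated by ligands of the Jagged and Delta families on neighbouring cells. After ligand binding, ADAM proteases and then γ-secretase cut the receptor, and its intracellular domain enters the nucleus, where it joins the DNA-binding protein RBPJ and Mastermind co-activators at target genes such as HES1 and HEY1. H3K27ac is deposited at active promoters and enhancers by the acetyltransferases EP300 and CREBBP, so a peak marks acetylated chromatin but does not measure RNA or protein.

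The list of MDA-MB-231 replicate 1 stood apart from the other lists. It held 209 peaks on chromosomes 1 to 22 and X, against 43353 in MDA-MB-231 replicate 2, 46330 in Hs578T replicate 1 and 44920 in Hs578T replicate 2, and covered 0.113 Mb against 81.8, 90.7 and 83.9 Mb. Read depth is unknown for all 4, and the lists with many peaks are called the 3 large lists. Results are given with and without the short list. With 2 lists per line, an exact two-sided permutation test of the lines cannot go below p = 0.333, so no difference between the lines was tested. The size of a peak is given as its fold enrichment over background as written by the authors' peak caller, which was scaled within each library, so sizes are compared between genes of a list and not between lists.

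Promoter sequences are shown because GC-rich promoters were found among the members with a peak and among those without. RefSeq promoters (GRCh38.p14, 250 bases before and 50 after the start) were used for 8 of the 10 members, all but DLL1 and HEY1. The median GC content of all 35116 promoters in the table was 58.7% and their median number of CpG dinucleotides was 14. Among the members with a promoter peak, NOTCH1 had 77.0% GC and 42 CpG, NOTCH2 70.3% and 33, JAG1 68.7% and 24, and HES1 59.0% and 21. Among those without a peak, NOTCH3 had 78.3% and 37, JAG2 79.7% and 46, and DLL4 70.7% and 27 CpG, all above the medians. NOTCH4 alone of the 8 was poor in CpG, with 59.0% GC and 5 CpG. The 250 bases before the start of JAG1 (marked), NOTCH3 (not marked) and NOTCH4 (not marked) are printed with each CpG in capitals, and hold 17, 28 and 3 of them.
JAG1: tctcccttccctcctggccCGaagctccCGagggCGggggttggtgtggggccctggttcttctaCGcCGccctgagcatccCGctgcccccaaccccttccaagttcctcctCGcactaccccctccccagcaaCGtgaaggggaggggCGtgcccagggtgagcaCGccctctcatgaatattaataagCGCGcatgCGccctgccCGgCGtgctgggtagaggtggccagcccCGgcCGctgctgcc
NOTCH3: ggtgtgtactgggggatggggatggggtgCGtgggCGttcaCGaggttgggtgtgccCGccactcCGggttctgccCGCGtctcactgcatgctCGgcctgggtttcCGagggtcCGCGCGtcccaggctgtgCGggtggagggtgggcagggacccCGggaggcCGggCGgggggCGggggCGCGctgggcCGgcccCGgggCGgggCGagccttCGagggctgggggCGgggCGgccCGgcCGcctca
NOTCH4: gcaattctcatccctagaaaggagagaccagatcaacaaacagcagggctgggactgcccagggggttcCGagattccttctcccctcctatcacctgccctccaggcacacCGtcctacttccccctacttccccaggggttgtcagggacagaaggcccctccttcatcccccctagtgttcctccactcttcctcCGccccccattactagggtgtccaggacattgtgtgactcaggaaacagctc

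RBPJ binds the core TGGGAA, and HES1 was the only member of the 8 with it, on either strand, in the stretch from 250 bases before to 50 after the start. It held 2 copies in the same direction, with first bases 84 and 70 bases before the start site. The core occurred in 24.0% of all promoters in the table, and 3.80% had at least 2 copies. The longer form GTGGGAA, of which HES1 had 1 copy, occurred in 6.25%. The sequence before the HES1 start has the core in capitals.
HES1: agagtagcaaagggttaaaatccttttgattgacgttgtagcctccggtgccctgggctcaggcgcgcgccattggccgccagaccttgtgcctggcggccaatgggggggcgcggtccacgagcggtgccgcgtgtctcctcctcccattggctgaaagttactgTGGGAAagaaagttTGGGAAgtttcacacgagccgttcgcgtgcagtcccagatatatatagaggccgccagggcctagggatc

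The motif of AP-1 (JUN and FOS dimers), TGACTCA on either strand, was found in this stretch in NOTCH4 only among the 8, starting 18 bases before its start site, and in 4.95% of all promoters in the table. Further out but still within 1 kb of the start site, the promoter peaks held GTGGGAA upstream of NOTCH1 and downstream of the NOTCH2 start, and TGACTCA upstream of HES1. A match of letters is a description and not a measured binding site.

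Acetylated promoters separated the members into 5 with a peak in all 3 large lists (NOTCH1, NOTCH2, JAG1, HES1 and HEY1) and 5 with a peak in none (NOTCH3, NOTCH4, JAG2, DLL1 and DLL4). By role, 2 of 4 receptors, 1 of 4 ligands and both targets were marked. The share of all protein-coding genes with a marked promoter was 58.1% in MDA-MB-231 replicate 2, 58.2% in Hs578T replicate 1, 56.4% in Hs578T replicate 2 and 55.6% in all 3 large lists, so 5 of 10 is near the background. The list of MDA-MB-231 replicate 1 had a peak at none of the 10 and at 12 genes in all, or 0.0601%. With that list, therefore, no member was marked in both replicates of MDA-MB-231, and without it the set of marked members was the same in both lines.

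**Figure D1:**
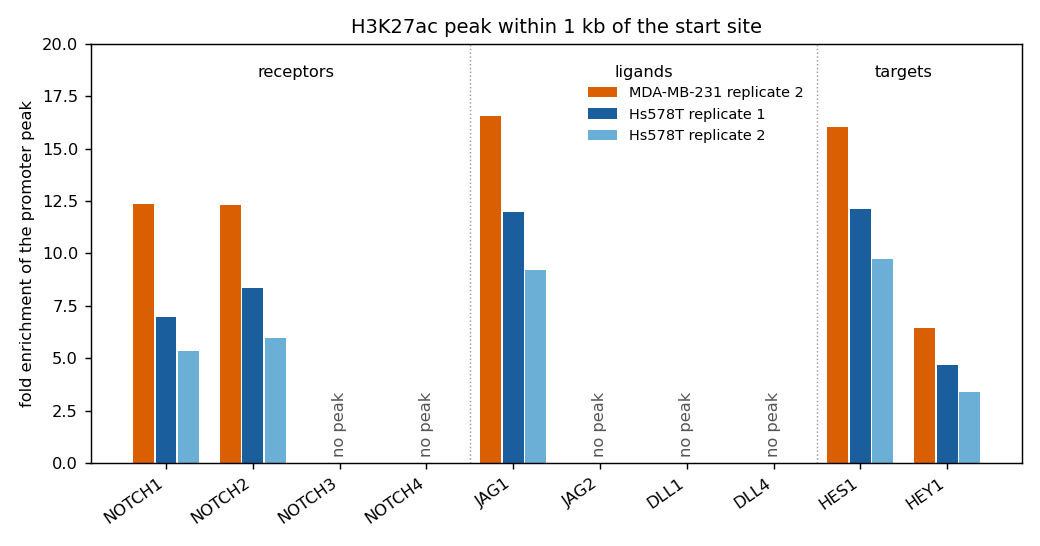
Fold enrichment (linear axis from 0) of the H3K27ac peak within 1 kb of the start site of each gene, with a bar for each of the 3 large lists. NOTCH1, NOTCH2, JAG1, HES1 and HEY1 have a bar in each list, the other 5 genes have no peak, and MDA-MB-231 replicate 1, not drawn, has a peak at none of them.

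Among the receptors, NOTCH1 and NOTCH2, the broadly expressed members of the family, were marked and NOTCH3 and NOTCH4 were not. The NOTCH1 promoter peak (chr9, start site at 136546048 on the minus strand) had a fold enrichment of 12.4 in MDA-MB-231 replicate 2, 6.95 in Hs578T replicate 1 and 5.33 in Hs578T replicate 2. These values lay at percentiles 70.1, 39.7 and 32.2 of the marked protein-coding genes of each list, so NOTCH1 stood in the upper part of the MDA-MB-231 list and below the middle of both Hs578T lists. The peak was 2107, 1996 and 1617 bp wide and overlapped the first exon. The NOTCH2 promoter peak (chr1, start site at 120069662 on the minus strand) had 12.3, 8.34 and 5.94, at percentiles 70.0, 51.7 and 39.8, with widths of 2305, 2198 and 2176 bp. NOTCH1 and NOTCH2 changed places in the order of the members between the MDA-MB-231 list and the Hs578T lists. Their values were close in MDA-MB-231 replicate 2, while NOTCH2 was above NOTCH1 in Hs578T replicate 1 (8.34 against 6.95) and Hs578T replicate 2 (5.94 against 5.33).

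NOTCH2 has near-identical copies that arose by duplication of its 5′ part. The NOTCH2 promoter sequence matched that of NOTCH2NLA at 284 of 285 compared bases (99.6%) and that of NOTCH2NLB at 267 of 268 (99.6%). NOTCH2NLC matched at 240 of 266 (90.2%), NOTCH2NLR at 211 of 268 (78.7%) and a second NOTCH2NLB promoter at 90 of 292 (30.8%). The sequences were slid along each other without gaps, so an insertion or deletion would lower a match. Short reads cannot be assigned with certainty between near-identical copies. The NOTCH2NLA promoter was marked at 19.6, 11.8 and 8.45 in the 3 large lists, above NOTCH2 in each, and the values of both are uncertain for that reason.

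NOTCH3, a receptor of vascular smooth muscle and of some breast tumours, had its nearest peak 9151, 9155 and 9104 bp from the start site in MDA-MB-231 replicate 2, Hs578T replicate 1 and Hs578T replicate 2, upstream in each. For NOTCH4, a receptor mainly of endothelium, the nearest peak was 27025, 26984 and 26985 bp downstream, at the other end of the gene. Both were therefore far outside the 1 kb limit.

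JAG1 was the only marked ligand and had a strong and broad promoter peak in each large list. Its fold enrichment was 16.6 in MDA-MB-231 replicate 2, 12.0 in Hs578T replicate 1 and 9.19 in Hs578T replicate 2 (chr20, start site at 10673999 on the minus strand), at percentiles 85.5, 74.0 and 70.0 of the marked genes. The peak was 5334, 5349 and 4776 bp wide, at percentiles 93.0, 91.6 and 91.4 by width, and reached over 3 kb into the gene. JAG2, the other Jagged ligand, had no peak nearer than 7167, 7546 and 30162 bp, all upstream. Of the Delta ligands, DLL1 had its nearest peak 10068, 10325 and 10432 bp downstream, and DLL4, known for its part in vessel sprouting, 11645, 11496 and 11878 bp downstream. The annotated DLL1 gene reaches upstream of its canonical start site, to chr6:170306565. That end lies in a region shared by the 3 large lists, at the start of FAM120B, with 7.95, 8.87 and 6.08.

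Both targets were marked, at opposite ends of the range. HES1, a basic helix-loop-helix repressor, had a fold enrichment of 16.1, 12.1 and 9.73 (chr3, start site at 194136148 on the plus strand), at percentiles 84.2, 74.7 and 73.4, and its peak of 5505, 4371 and 4160 bp reached 2103, 1903 and 1723 bp downstream, short of the end of this gene of 2585 bp. JAG1 was the highest of the members in MDA-MB-231 replicate 2 and HES1 in both Hs578T lists, and the gap between the pair was small in each. HEY1, a related repressor, had 6.46, 4.68 and 3.41, the lowest of the 5 in every large list, at percentiles 28.4, 17.9 and 7.67. Its peak of 1319, 1226 and 1099 bp lay upstream and ended 174, 235 and 456 bp short of the canonical start site, so that HEY1 alone of the 5 had a start site outside its peak. On the other side of the 1 kb limit, the closest peak of any unmarked member was the one 7167 bp from JAG2. All 5 promoters had their highest fold enrichment in MDA-MB-231 replicate 2 and their lowest in Hs578T replicate 2, and the medians over all marked genes, 9.18, 8.13 and 6.86, had the same order.

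Where the promoter was marked, the strongest H3K27ac in the window was in most cases away from it. A peak over 2.5 kb from the canonical start site of every gene, called distal here, had a higher fold enrichment than the promoter peak at 3 of the 5 marked members in MDA-MB-231 replicate 2 and at 5 of 5 in both Hs578T replicate 1 and Hs578T replicate 2. Over all marked genes this was so for 46.7%, 50.8% and 53.3% of windows, and the members' windows differ in length and gene content from the others.

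**Figure D2:**
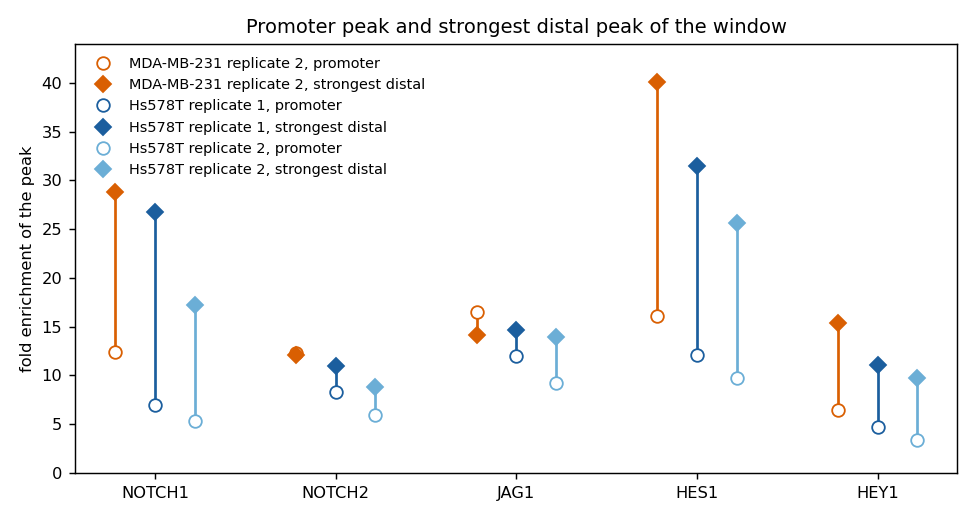
Fold enrichment (linear axis from 0) of the promoter peak (open circle) and of the strongest distal peak in the window (diamond) for the 5 genes with a promoter peak, joined by a line for each of the 3 large lists. The distal peak of HES1 at 40.1, 31.5 and 25.6 is the highest, and only NOTCH2 and JAG1 in MDA-MB-231 replicate 2 have the promoter above the distal peak.

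The strongest distal peak of all the windows lay 4.95 kb downstream of the HES1 start site, past the annotated end of the gene, in a region called in all 4 lists. Its fold enrichment was 40.1, 31.5 and 25.6 in MDA-MB-231 replicate 2, Hs578T replicate 1 and Hs578T replicate 2, which was 2.496, 2.59 and 2.63 times that of the HES1 promoter. Among the 28536, 31086 and 30162 distal peaks of these lists it stood at percentiles 99.9, 99.5 and 99.3. The single peak that MDA-MB-231 replicate 1 had in any of the 10 windows also lay here, 5717 to 6147 bp downstream of the start site, with 431 bp and a fold enrichment of 3.55. The HES1 region held 3 copies of the RBPJ form GTGGGAA and 1 of the AP-1 motif within the bases that all 3 large lists shared. At least 3 copies of GTGGGAA were present in 1.65%, 1.86% and 1.68% of all distal peaks of the lists, and the HES1 peak was also wider than most, at 3858, 3875 and 2989 bp.

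The 4 sites of the HES1 region are printed with 17 bases on either side and the motif in capitals, read 5′ to 3′ on the strand named (hg38). The first 2 RBPJ matches lie outside the peak of MDA-MB-231 replicate 1, and the third RBPJ match and the AP-1 match lie inside it.
HES1, 3706 bp downstream, RBPJ match, chr3:194139834-194139874, minus strand: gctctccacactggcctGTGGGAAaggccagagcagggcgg
HES1, 5052 bp downstream, RBPJ match, chr3:194141180-194141220, minus strand: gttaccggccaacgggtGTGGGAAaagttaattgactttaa
HES1, 5894 bp downstream, RBPJ match, chr3:194142022-194142062, minus strand: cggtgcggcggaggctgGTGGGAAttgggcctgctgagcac
HES1, 5957 bp downstream, AP-1 match, chr3:194142085-194142125, plus strand: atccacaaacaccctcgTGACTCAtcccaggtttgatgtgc

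NOTCH1 had a pair of strong upstream regions. The region centred 22.5 kb before its start site had a fold enrichment of 28.8, 26.8 and 17.2, or 2.33, 3.86 and 3.23 times its promoter, at percentiles 99.3, 99.0 and 96.7 of distal peaks. The region 25.9 kb before the start had 16.7, 20.6 and 16.2. The bases of the 22.5 kb region that the 3 large lists shared held neither GTGGGAA nor TGACTCA, and those of the 25.9 kb region held 1 GTGGGAA. In the NOTCH1 gene itself there was 1 shared region, 6.65 kb into the gene and in an intron, with 6.28, 5.67 and 5.78.

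NOTCH2 had its strongest distal region 73.9 kb before the start site, with 12.1, 10.99 and 8.82, which was 0.983, 1.32 and 1.48 times the promoter. This gene had 6 shared regions within its annotated body besides the promoter, more than any other member, at 2.90 to 8.37. The comparison with the NOTCH2 copies covered the promoter sequence only, so whether reads of these regions could belong to the copies was not tested. The NOTCH2 body of 189227 bp is also the longest of the 10, and it reaches upstream of the canonical start site, so that the regions 18.2 and 21.2 kb before that site count as within it. HEY1 had its strongest distal region 26.7 kb upstream, with 15.4, 11.05 and 9.74, or 2.39, 2.36 and 2.86 times its weak promoter peak. That region held 4 AP-1 matches in 2991, 2990 and 2787 bp, and 1.88%, 1.90% and 1.76% of the distal peaks of the lists held as many. The median widths over all distal peaks were 1220, 1237 and 1199 bp, and the part of width in these shares was not tested.

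JAG1 had the largest number of distal regions, on both sides of the gene. No other protein-coding gene starts in its window, and of 14 regions shared by the 3 large lists 12 lay outside the gene and every start site of a protein-coding gene. The strongest, 76.0 kb downstream inside the neighbouring gene SLX4IP, had 14.1, 14.6 and 14.0, which was 0.854, 1.22 and 1.52 times the promoter. It was followed by regions 57.7 kb upstream (12.4, 14.3 and 12.8) and 81.5 kb downstream (11.5, 12.5 and 11.6). The 76.0 kb region held 3 AP-1 matches and no GTGGGAA, and 5.58%, 5.59% and 5.37% of the distal peaks of the 3 large lists held at least 3. The JAG1 peak was 3278, 3319 and 3378 bp wide, above the medians of 1220, 1237 and 1199 bp over all distal peaks, and the part of width in these shares was not tested. These matches are printed in the same way as those of HES1.
JAG1, 74991 bp downstream, AP-1 match, chr20:10598988-10599028, plus strand: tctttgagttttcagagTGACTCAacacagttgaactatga
JAG1, 75451 bp downstream, AP-1 match, chr20:10598528-10598568, minus strand: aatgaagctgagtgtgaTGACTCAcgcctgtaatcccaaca
JAG1, 77260 bp downstream, AP-1 match, chr20:10596719-10596759, minus strand: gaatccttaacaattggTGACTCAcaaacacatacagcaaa

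The 5 members without a promoter peak were not devoid of acetylation nearby. DLL1 had a region 114.5 kb upstream, inside FAM120B and across the edge of the window, with 25.2, 28.2 and 22.4, at percentiles 98.7, 99.1 and 98.8 of distal peaks. The other shared regions of the DLL1 window had 3.70 to 8.87. DLL4 had a row of regions on its downstream side, of which those 12.6, 43.0, 54.8 and 71.1 kb from the start had 11.9, 10.7, 11.2 and 11.6 in MDA-MB-231 replicate 2, 11.7, 13.7, 12.3 and 10.7 in Hs578T replicate 1, and 8.83, 11.7, 10.3 and 9.29 in Hs578T replicate 2. The 54.8 and 71.1 kb regions lie in INO80, and the start site of CHAC1, 24.0 kb downstream, had the strongest peak of the DLL4 window in MDA-MB-231 replicate 2 at 12.5.

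For NOTCH4 the strongest peak of the window lay at the 3′ end of the gene itself, 28.2 kb from its start, with 29.5, 27.2 and 22.8. It overlapped 3 exons of the canonical transcript, with 957 coding bases, and lay within 2.5 kb of the start of another gene, so it was not counted as distal. The NOTCH4 window holds start sites of 13 other protein-coding genes, and 6 of its 11 shared regions were at such sites. A region 31.7 kb upstream of NOTCH4 had 20.9, 23.4 and 17.1, but it too lay within 2.5 kb of another start site and was not counted as distal. The strongest distal region of NOTCH4, 74.5 kb upstream inside TSBP1, had 7.22, 10.7 and 9.08. JAG2 had its strongest region 76.5 kb downstream, near the start of a gene that is not protein-coding, with 18.2, 17.7 and 14.4, and its strongest distal region 80.8 kb downstream, with 12.8, 10.7 and 7.95. NOTCH3 was the weakest of all, since away from the start sites of other protein-coding genes its highest value in any list was 5.20, in the region 9.59 kb upstream. The strongest peaks of the NOTCH3 window were at the start sites of ILVBL (9.86, 7.45 and 6.65) and SYDE1 (9.45, 7.46 and 6.07).

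**Figure D3:**
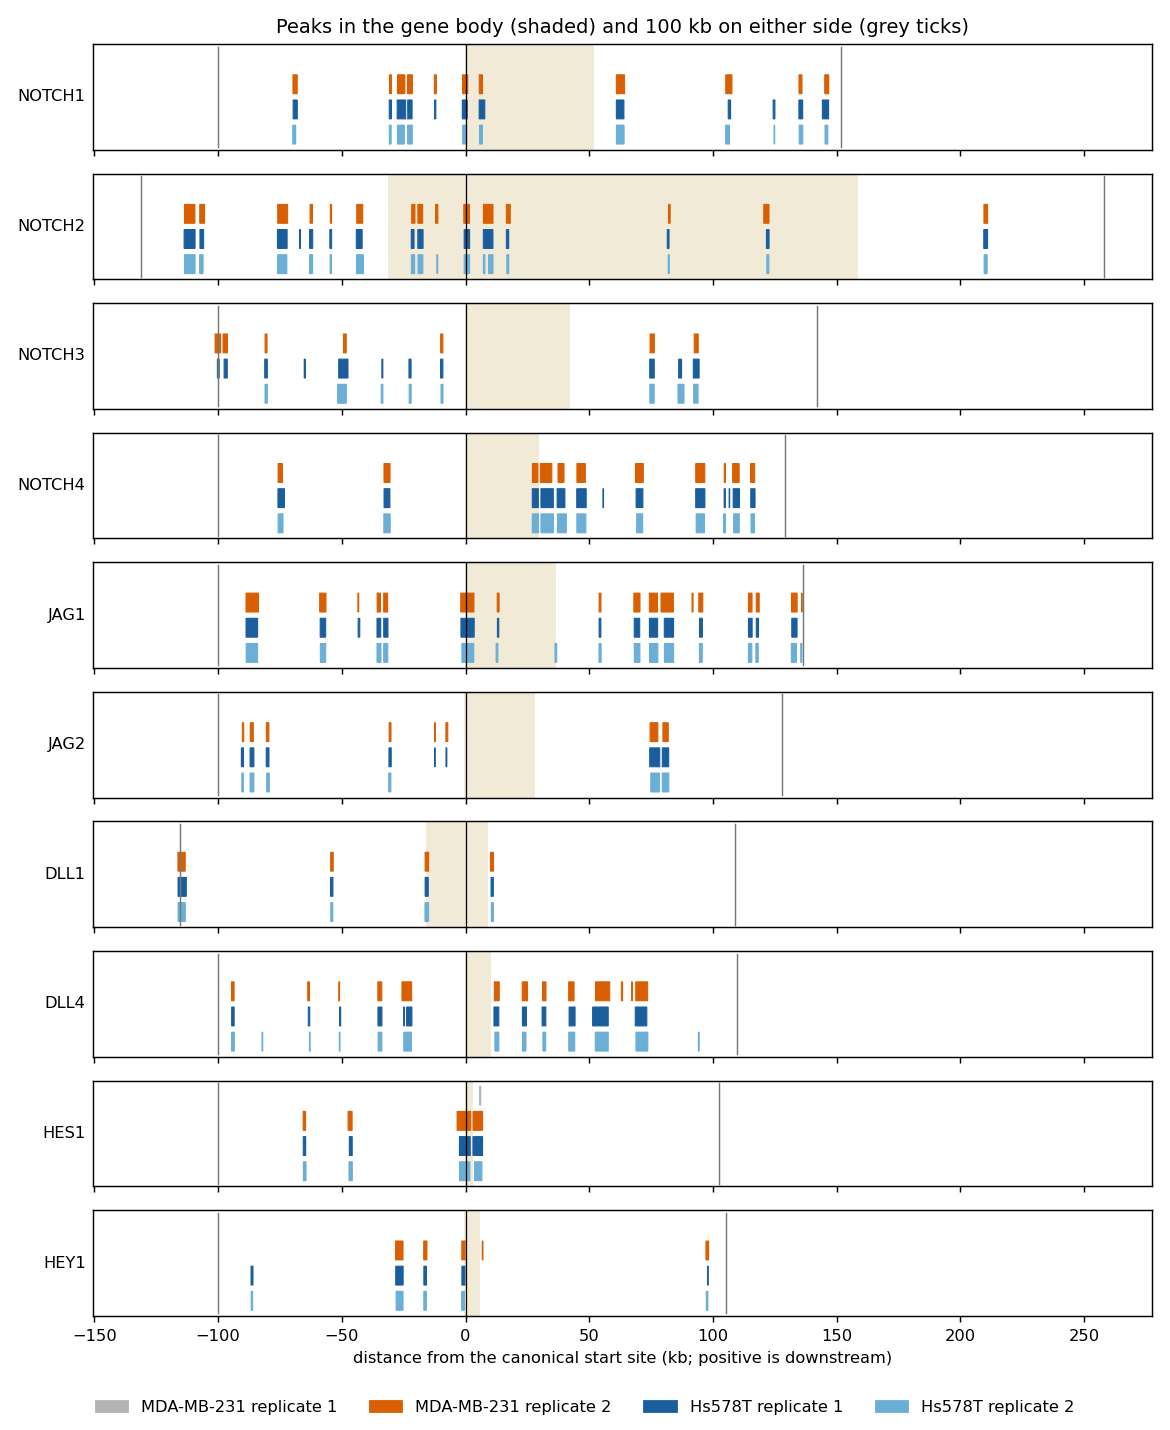
Peaks of the 4 lists along the window of each gene, drawn to scale with a thin outline by their distance from the canonical start site in kb with downstream to the right, the gene body shaded and grey ticks at the window edges. The rows of the 3 large lists match at most positions, NOTCH3 is the clearest exception, and MDA-MB-231 replicate 1 has a single peak, next to HES1.

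The bases under peaks followed the same division only in part. Over the 10 windows, peaks numbered 95 in MDA-MB-231 replicate 2, 99 in Hs578T replicate 1 and 94 in Hs578T replicate 2, and covered 184895, 185924 and 171501 bp. MDA-MB-231 replicate 1 had 1 peak and 431 bp, which made the MDA-MB-231 mean 92663 bp ± 130436 (SD, n = 2), against 178712 bp ± 10199 (SD, n = 2) in Hs578T. Without the short list MDA-MB-231 replicate 2 lay between the Hs578T replicates in both measures. Of the covered bases in the 3 large lists, 4.31 to 4.55% were within 1 kb of a member's own start site, 17.4 to 18.0% within 1 kb of another protein-coding start site, 9.29 to 11.2% in the rest of the gene bodies and 66.5 to 68.3% elsewhere.

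JAG1 had the most covered bases, with 35612, 32310 and 32435 bp, or 15.1, 13.7 and 13.7% of its window. These shares stood at percentiles 94.1, 89.9 and 92.1 of the windows of all protein-coding genes. NOTCH2, with a promoter peak and the longest window, had 30110, 28087 and 25422 bp, at percentiles 74.1, 68.5 and 68.3. NOTCH4 (28472, 31065 and 29547 bp) and DLL4 (26593, 24497 and 23467 bp), both without a promoter peak, came near JAG1, at percentiles 89.8, 89.7 and 90.7 for NOTCH4 and 90.4, 85.2 and 87.0 for DLL4. In the NOTCH4 window 15200, 15464 and 15086 of these bases were at start sites of other genes, and in the DLL4 window 3459, 2957 and 2703. HEY1, although marked, had 6976, 6354 and 6112 bp, at percentiles 44.3, 38.4 and 40.0. DLL1 had the fewest, with 5906, 5797 and 5346 bp at percentiles 36.6, 33.6 and 33.7.

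**Figure D4:**
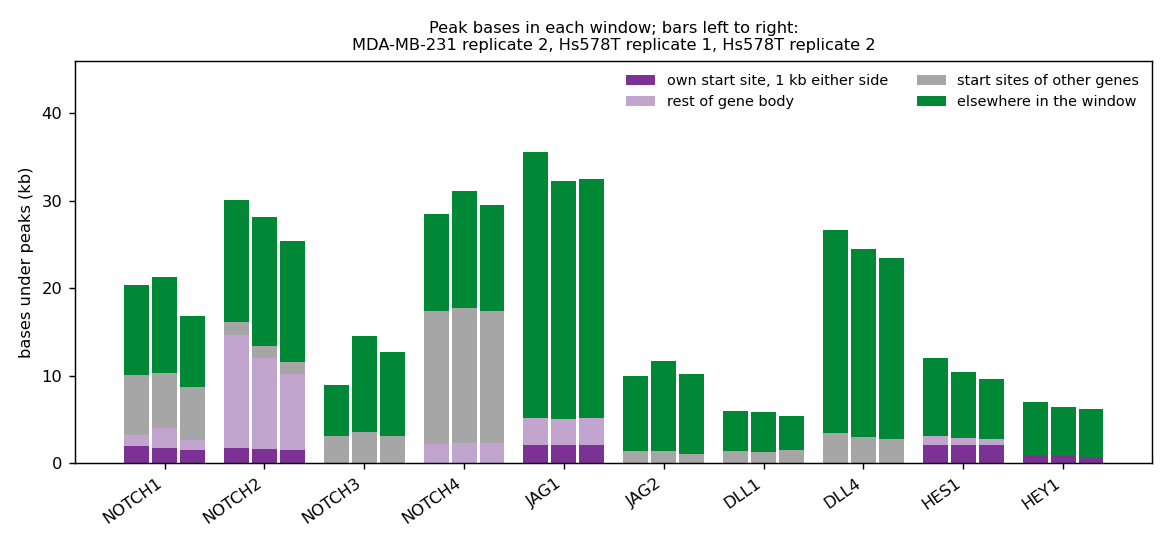
Bases under H3K27ac peaks in the window of each gene, in kb, split by colour into the gene's own start site, the rest of its body, start sites of other protein-coding genes and elsewhere, with a bar for each of the 3 large lists. JAG1, NOTCH2, NOTCH4 and DLL4 have the tallest bars and DLL1 and HEY1 the shortest, and the grey part, other genes' start sites, is widest for NOTCH4.

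Most regions around the members were called in both lines. Merging the peaks of all lists gave 107 regions in the 10 windows, of which 83 (77.6%) were in all 3 large lists, against 74.6% of 50710 regions genome-wide. All 4 regions of HES1 and of DLL1 were shared, followed by 14 of 16 for NOTCH2, 11 of 13 for NOTCH4 and 10 of 12 for NOTCH1. NOTCH3 had the lowest share, with 5 of 11, and 3 of the 5 regions called only in both Hs578T lists were in its window, at 2.67 to 3.08. A further 4 regions, at JAG1, DLL4 and HEY1, were called only in MDA-MB-231 replicate 2, with fold enrichments of 2.63 to 3.27. No region missing from a large list was above 4.61, the value of a region at NUDT14 in the JAG2 window in Hs578T replicate 1.

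The overlap of covered bases, as bases under peaks of both lists over bases under peaks of either, was 0.776 between MDA-MB-231 replicate 2 and replicate 1 of Hs578T, 0.748 between MDA-MB-231 replicate 2 and replicate 2 of Hs578T, and 0.801 between the 2 Hs578T replicates. Over the whole lists these values were 0.770, 0.759 and 0.780. The members' windows were thus above the whole lists within Hs578T and in the overlap of MDA-MB-231 replicate 2 with replicate 1 of Hs578T, and below them in that with replicate 2 of Hs578T, and no difference was tested. In the NOTCH3 window the same overlaps were 0.502, 0.370 and 0.637, the last being the overlap of replicates of a line.

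Motifs were counted in the distal peaks of the windows, 60 in MDA-MB-231 replicate 2 and 58 in each Hs578T list. GTGGGAA was present in 25 of 60 (41.7%, 95% Wilson interval 30.1 to 54.3), 22 of 58 (37.9%, 26.6 to 50.8) and 19 of 58 (32.8%, 22.1 to 45.6), beside 26.6%, 26.97% and 26.4% of all distal peaks. TGACTCA was present in 48.3% (36.2 to 60.7), 48.3% (35.9 to 60.8) and 43.1% (31.2 to 55.9), beside 51.9%, 51.1% and 50.3%. The NF-κB motif was present in 25.0% (15.8 to 37.2), 25.9% (16.3 to 38.4) and 27.6% (17.8 to 40.2), beside 17.2%, 17.2% and 16.4%. The intervals cover counting error only. The background share lay inside the interval for AP-1 in all 3 lists, for the RBPJ form in the Hs578T lists and for NF-κB in all but Hs578T replicate 2, and the lists share most of their regions, so they are not independent counts. In the central 500 bp of each peak GTGGGAA was present in 20% (11.8 to 31.8), 22.4% (13.6 to 34.7) and 20.7% (12.3 to 32.8) beside 9.78%, 9.70% and 9.99%. The background thus lay below the interval in all 3 lists. These intervals take peaks as independent, although peaks of 1 window need not be. In Hs578T replicate 1, JAG1 and HEY1 held 5 and 3 of the 13 matched peaks. They held 4 and 3 of 12 in Hs578T replicate 2, and 3 and 2 of 12 in MDA-MB-231 replicate 2. DLL4 had none of its 9, 7 and 9 distal peaks matched, so no enrichment across the members is drawn from the intervals. NF-κB in the central 500 bp had 13.3% (6.91 to 24.2), 10.3% (4.83 to 20.8) and 15.5% (8.38 to 26.9) beside 6.40%, 6.11% and 6.07%, below the interval in MDA-MB-231 replicate 2 and Hs578T replicate 2. AP-1 had 31.7%, 25.9% and 22.4% beside 32.0%, 30.7% and 30.4%, inside the interval in each list. The distal peaks of the windows had median widths of 1327, 1221 and 1179 bp against 1220, 1237 and 1199 bp over the lists.

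The other genes of the pathway were counted from lists of 50 genes grouped by function. A promoter peak in all 3 large lists was present at 37 of them, or 74.0%, beside the 55.6% of all protein-coding genes. All 9 genes of receptor processing were marked, from PSENEN, a subunit of γ-secretase (23.1, 16.6 and 12.8), down to APH1B in MDA-MB-231 replicate 2 (6.31) and PSEN2 in the Hs578T lists (4.95 and 4.07), subunits of the same protease complex. All 7 genes of the nuclear complex were marked too, with the acetyltransferase EP300 (21.6, 16.6 and 11.8) and RBPJ itself (18.0, 14.8 and 10.98) among the highest and MAML2 (6.06, 5.42 and 5.19) the lowest in 2 of the lists. Of the co-repressors 5 of 6 were marked, and KDM5A had no peak in any list.

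Of the 5 glycosyltransferases that modify the receptors 4 were marked, and MFNG had a peak at 3.41 in MDA-MB-231 replicate 2 and 2.75 in Hs578T replicate 1 only. Genes of ligand and receptor turnover were marked at 8 of 11, led by the ubiquitin ligase MIB2 (19.1, 19.3 and 12.5), while DTX1 and DTX4 had no peak and NEURL1 had a peak in Hs578T replicate 1 only (3.36). Among other ligands DLK2 was marked, weakly, at 3.16, 2.51 and 3.07, and DLL3 and DLK1 were not. The group of other targets, which also holds NOTCH2NLA, was marked at 3 of 9. HES4 (16.9, 12.2 and 8.23) and HES2 (7.46, 7.97 and 6.28) were marked, HES5, HEY2 and HEYL were not, and HES6 and HES7 had a peak in MDA-MB-231 replicate 2 only, at 3.08 and 5.71. NRARP, a feedback inhibitor, had 3.41 in MDA-MB-231 replicate 2 and 2.91 in Hs578T replicate 1 and no peak in Hs578T replicate 2.

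**Figure D5:**
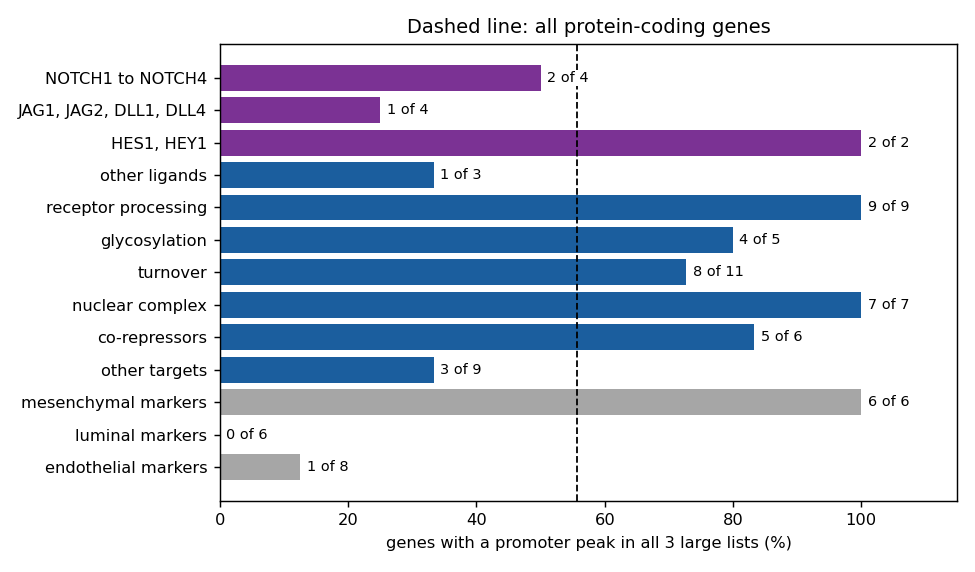
Percentage of genes with a promoter peak in all 3 large lists for the members by role (purple), other pathway groups (blue) and cell type markers (grey), with the counts beside the bars and a dashed line at the 55.6% of all protein-coding genes. Receptor processing, the nuclear complex and the mesenchymal markers stand at 100%, while luminal markers stand at 0% and endothelial markers at 12.5%.

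Cell type markers were counted as a description. They were chosen with earlier results of these data known, so they are no independent check of the identity of the lines. All 6 mesenchymal markers (VIM, CD44, AXL, FN1, ZEB1 and CAV1) were marked in the 3 large lists and none of 6 luminal markers was, with EPCAM at 5.04 in MDA-MB-231 replicate 2 and 3.36 in Hs578T replicate 1 as the only peaks among them. Because DLL4 and NOTCH4 are best known from endothelium, endothelial genes were counted too. Of 8, only ROBO4 was marked in all 3 large lists (23.7, 25.3 and 20.5), PECAM1 had a peak in MDA-MB-231 replicate 2 (14.3) and Hs578T replicate 1 (2.82), and CDH5, KDR, TIE1, TEK, EMCN and VWF had none.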

How the data were processed

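H3K27ac ChIP-seq peak lists of 4 samples were analysed. Per the labels and the study's methods, the authors trimmed reads with Trimmomatic, aligned them to hg38 with Bowtie2, called peaks per sample with MACS2 against input and removed blacklisted regions, while deepTools served for display. Versions and calling thresholds are not given in the sources used here. The deposited files hold an integer score, a fold enrichment (ratio over local background), and −log10 p-value and −log10 q-value per peak, and no read counts, so depth and its effect on weak peaks are unknown. The largest q-value in a list was 0.0827 to 0.0994, and all peaks end within the chromosomes of the hg38 reference.

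Peaks on chromosomes 1 to 22 and X were compared with canonical start sites (GENCODE release 44) in Python 3.11.15 with pandas 2.3.3, NumPy 2.4.6 and SciPy 1.17.1. An overlap of at least 1 bp counted, and the strongest peak was taken where several did. Motifs were searched on both strands. The search was tested on simulated peaks. Percentiles are the share of marked genes, distal peaks or windows at or below a value. Groups came from the labels, and no test between groups was made. The members, pathway lists and markers were chosen with earlier results of these data known. Named beside the members were the pathway genes not marked in all 3 large lists. In some groups only, the highest or lowest marked gene by fold enrichment was named as well. RBPJ was added after its values were seen, and neighbours were named where their start site held the strongest peak of a window. Other peak strengths, distances, start sites, windows and overlaps were tried as alternatives.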

Additional observations from a re-analysis of the deposited data

How the results depend on the processing

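The count of 5 members with a promoter peak in all 3 large lists did not change with start sites of all basic transcripts. That setting added no start site for NOTCH3, NOTCH4, DLL1 or DLL4, which have 1 each, so it could not change their calls. The upstream end of the annotated DLL1 gene, inside a region shared by the 3 large lists, was not examined as a start site. The count of 5 was also the same with start sites within 500 bp or 2.5 kb and with peaks merged within 1 kb. Leaving out any single list gave a count of 5 in each case. With the strongest 50% of each list by score it was 4, because HEY1 kept its peak in MDA-MB-231 replicate 2 only. At that setting 5, 4 and 4 of the 10 members were marked in MDA-MB-231 replicate 2, Hs578T replicate 1 and Hs578T replicate 2. The shares of all genes marked in these lists were 44.99, 45.96 and 42.43%. With the same 209 top peaks from every list the count was 0 in each of the 3 large lists and in all of them together. At this setting 0.265, 0.230 and 0.145% of all genes were marked in the 3 large lists. The covered bases moved with the window. They were 50696, 47232 and 42330 bp in the 3 large lists (mean of the 4 lists 35172 bp) for the gene body plus 10 kb. For plus 50 kb they were 123207, 122040 and 114178 bp in the same lists. With the strongest 50% of peaks they were 148636, 150555 and 138217 bp, and without start sites of other genes 152030, 153586 and 140676 bp. Leaving out a list gave a mean of 118942 to 180773 bp, the highest without MDA-MB-231 replicate 1, against 135688 bp with all 4. The 83 shared regions became 54 of 62 with the strongest 50% and 52 of 64 within 50 kb, and 83 to 89 when a list was left out. The 83 came from leaving out MDA-MB-231 replicate 1, whose peaks are not needed for a shared region. When a large list was left out, a peak was needed in fewer lists. In the central 500 bp of distal peaks, the AP-1 shares in MDA-MB-231 replicate 2, Hs578T replicate 1 and Hs578T replicate 2 were 31.7, 25.9 and 22.4%, the RBPJ shares 20, 22.4 and 20.7% and the NF-κB shares 13.3, 10.3 and 15.5%. All were lower than over whole peaks, as were the shares over all distal peaks, and the background then lay below the interval for RBPJ in both Hs578T lists and for NF-κB in MDA-MB-231 replicate 2, where it had been inside. These intervals take the peaks of a window as independent, so no enrichment is drawn from them. No paired analysis was possible because no result comes from a test between groups. Depth was not given, so the part of depth in the number of weak peaks was not tested.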
